A study of Mus musculus with 14 samples.

Results

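Genes that copy DNA and genes that divide the cell were examined for acetylation of histone H3 at lysine 27 (H3K27ac), found at promoters and enhancers in use, in macrophages sorted from brain tumours. The list held 40 of the 21887 protein-coding mouse genes considered, 21 of them acting in S phase and 19 in mitosis. They were listed by name for these functions, and the rule used no measured value. Nearly all of them carried the mark at a gene end in nearly every library. Outside DMSO library 2 their median mark lay within about 10 percentile points of the median marked gene, and neither the S phase genes nor the mitosis genes differed between pracinostat and DMSO beyond the spread between libraries.

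The first group was CD11b+ cells from mice given pracinostat, an inhibitor of histone deacetylases, by mouth at 30 mg/kg, 4 times per week for 3 weeks, starting on day 7 after implantation. A separate preparation note in the labels gives 3 mg/kg. The second group was CD11b+ cells from mice given the DMSO-containing solvent on the same schedule. All mice were of the immune-deficient NSG strain, which lacks mature T, B and NK cells and keeps myeloid cells, and all bore orthotopic T387 glioblastoma (GBM) xenografts. CD11b is a surface integrin of macrophages and microglia that neutrophils also carry. CUT&Tag, a method that cuts and tags DNA with a transposase tethered to a bound antibody, was run with an H3K27ac antibody on 4 pracinostat and 3 DMSO samples, and with non-specific IgG on 4 pracinostat and 3 DMSO samples. Samples are labelled as biological replicates with no animal named, so the p-values below measure only the spread between these samples.

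S phase genes are held silent in resting cells by RB-family proteins bound to E2F factors, and are released when cyclin-dependent kinases phosphorylate RB. Their products license origins, unwind and copy DNA, and supply nucleotides. Mitosis genes are transcribed later in the cycle, when the MuvB core, freed from the repressive DREAM complex, works with B-MYB and FOXM1 at promoters that often hold CCAAT boxes, the site of NF-Y, and a cell cycle homology region (CHR). Microglia and tumour macrophages can divide in place, so these genes are used to mark cycling macrophages.

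The promoters of 8 members are shown because they carry these elements beside the H3K27ac summits described below. Each is the 250 bases before the RefSeq transcription start in build GRCm38.p6 (mm10), read 5′ to 3′ on the gene's strand. Capitals mark, on either strand, the E2F cores TTCCCGC and TTGGCGC, the CHR letters TTTGAA and the CCAAT box. A TTGGCGC read on the other strand can overlap a CCAAT box. The 4 S phase promoters come first and the 4 mitosis promoters after them.
Mcm6, chr1:128359706-128359955, minus strand: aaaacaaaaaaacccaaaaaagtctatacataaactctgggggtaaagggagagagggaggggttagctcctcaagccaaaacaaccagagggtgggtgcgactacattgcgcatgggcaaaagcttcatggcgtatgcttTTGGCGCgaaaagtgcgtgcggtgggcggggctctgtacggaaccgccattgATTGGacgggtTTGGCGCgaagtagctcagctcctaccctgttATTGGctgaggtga
Mcm3, chr1:20820313-20820562, minus strand: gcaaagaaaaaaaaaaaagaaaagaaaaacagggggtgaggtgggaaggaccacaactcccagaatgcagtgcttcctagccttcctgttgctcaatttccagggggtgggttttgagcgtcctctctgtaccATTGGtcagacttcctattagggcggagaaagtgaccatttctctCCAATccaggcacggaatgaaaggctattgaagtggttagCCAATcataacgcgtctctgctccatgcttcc
Rrm1, chr7:102441445-102441694, plus strand: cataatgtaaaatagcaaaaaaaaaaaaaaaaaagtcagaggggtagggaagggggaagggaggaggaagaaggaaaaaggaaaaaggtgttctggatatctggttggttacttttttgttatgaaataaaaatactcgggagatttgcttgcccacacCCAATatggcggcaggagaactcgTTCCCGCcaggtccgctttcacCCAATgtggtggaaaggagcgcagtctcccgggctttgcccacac
Pcna, chr2:132253181-132253430, minus strand: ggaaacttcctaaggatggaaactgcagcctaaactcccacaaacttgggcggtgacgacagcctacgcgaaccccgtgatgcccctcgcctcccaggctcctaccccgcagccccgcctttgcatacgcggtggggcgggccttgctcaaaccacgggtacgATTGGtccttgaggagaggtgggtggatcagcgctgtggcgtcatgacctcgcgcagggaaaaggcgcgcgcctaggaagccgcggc
Top2a, chr11:99024190-99024439, minus strand: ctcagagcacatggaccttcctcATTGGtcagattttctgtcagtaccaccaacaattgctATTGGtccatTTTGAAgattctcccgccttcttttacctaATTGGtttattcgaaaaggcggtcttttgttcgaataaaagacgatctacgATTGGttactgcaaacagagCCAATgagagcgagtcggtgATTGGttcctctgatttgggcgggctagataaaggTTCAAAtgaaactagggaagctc
Mki67, chr7:135716380-135716629, minus strand: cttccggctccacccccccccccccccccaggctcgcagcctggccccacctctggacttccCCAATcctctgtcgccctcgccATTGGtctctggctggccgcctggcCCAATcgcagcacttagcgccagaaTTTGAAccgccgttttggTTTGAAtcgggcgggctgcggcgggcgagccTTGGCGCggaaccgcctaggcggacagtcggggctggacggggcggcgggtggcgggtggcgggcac
Ccnb2, chr9:70421555-70421804, minus strand: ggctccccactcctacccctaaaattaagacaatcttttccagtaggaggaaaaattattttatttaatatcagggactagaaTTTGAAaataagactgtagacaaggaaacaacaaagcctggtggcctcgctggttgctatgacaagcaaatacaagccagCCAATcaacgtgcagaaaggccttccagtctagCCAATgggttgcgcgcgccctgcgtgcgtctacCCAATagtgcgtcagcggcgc
Cdc20, chr4:118437344-118437593, minus strand: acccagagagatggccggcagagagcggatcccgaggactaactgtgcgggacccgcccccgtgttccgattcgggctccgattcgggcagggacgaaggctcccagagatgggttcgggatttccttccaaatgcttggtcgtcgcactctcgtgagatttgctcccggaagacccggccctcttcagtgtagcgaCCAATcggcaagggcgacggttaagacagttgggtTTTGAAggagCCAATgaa

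With every promoter at hand counted, the E2F cores were more frequent among the S phase promoters, and the CHR and CCAAT letters among the mitosis promoters. No test was run on these shares. Promoter sequence was at hand for 15 S phase and 16 mitosis members, and for 32851 promoters in all. Only 17492 of the protein-coding genes considered have an entry in that full set. Its shares are therefore not shares of protein-coding genes, unlike those of the members. An E2F core of either form was found in 6 of the 15 S phase promoters (40%), those of Cdc6, Mcm5, Mcm6, Mcm7, Pola1 and Rrm1. It was found in 3 of the 16 mitosis promoters (18.8%) and in 5.62% of all promoters. The promoters of Cdc6, Mcm7 and Pola1 precede a RefSeq start 442, 228 and 232 bp from the gene's 5′ end. That is beyond the 100 bp limit kept for the printed promoters. E2f1 (466 bp) and Aurka (316 bp), without a core, are beyond it too. The form TTCCCGC was held by 4 S phase promoters, by 0 mitosis promoters and by 3.82% of all promoters, while TTGGCGC was held by 3 S phase and 3 mitosis promoters and by 1.97% of all. The 4 TTCCCGC promoters were those of Cdc6, Mcm7, Pola1 and Rrm1, of which only that of Rrm1 is within the 100 bp limit. Shares were not recounted without the promoters beyond it. The CHR letters were in 7 of the 16 mitosis promoters (43.8%), those of Ccnb2, Cdc20, Cdk1, Kif11, Mki67, Top2a and Ube2c. They were in 1 of the 15 S phase promoters (6.67%), that of Mcm2, and in 16% of all promoters. CCAAT was in 15 of the 16 mitosis promoters (93.8%), Birc5 being the exception, in 9 of the 15 S phase promoters (60%) and in 33.8% of all. CHR and CCAAT stood together in 7 mitosis promoters, 1 S phase promoter and 5.55% of all promoters. Top2a, which encodes the topoisomerase that untangles chromosomes, held 2 CHR and 6 CCAAT matches. In Cdc20, whose product activates the ubiquitin ligase of anaphase, the CHR match began 18 bases before the start and a CCAAT box 53 bases before it. In Rrm1, encoding the large subunit of ribonucleotide reductase, the E2F core began 67 bases before the start, between CCAAT boxes at 91 and 45 bases. A match describes letters, not a bound site, and a promoter without one lacks only these letters in this window.

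**Figure D1:**
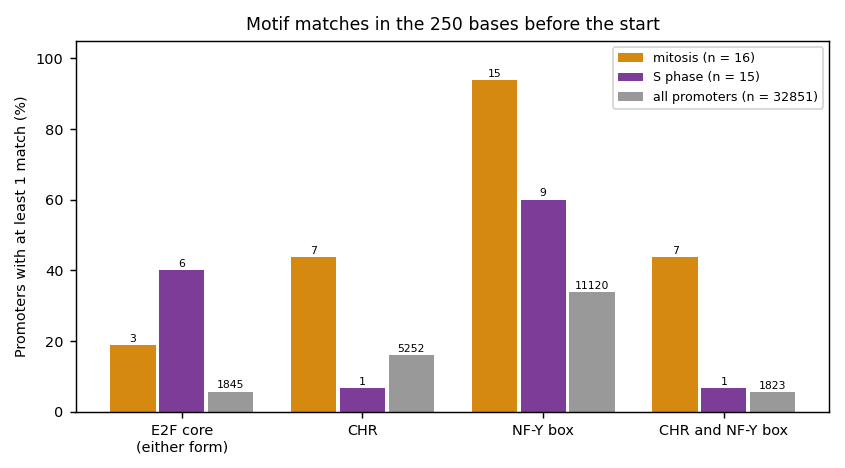
Share of promoters (percent, from 0) that hold each element within 250 bases before the start, for 15 S phase members, 16 mitosis members and all 32851 promoters. The E2F cores are most frequent among S phase members (40%), and the CHR letters (43.8%) and CCAAT (93.8%) among mitosis members. The 40% counts Cdc6, Mcm7 and Pola1, whose RefSeq start lies more than 100 bp from the gene's 5′ end.

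The deposited lists give the summit of each peak, the single base at its top, with a −log10 significance score per summit. The 4 pracinostat lists held 229609 to 289017 summits. The 3 DMSO lists held 208401, 53503 and 291042, so DMSO library 2 stood apart. IgG lists were far shorter, with 2194 to 10186 summits in pracinostat and 9244 to 18517 in DMSO libraries. Of all 21887 genes, 59.6 ± 1.45% had a summit within 1 kb of either gene end in pracinostat (SD, n = 4) and 52.6 ± 12.1% in DMSO libraries (SD, n = 3). Scores grow with depth and were not normalized between libraries, so each gene was given a percentile of its highest score within its own library, where 100 is the highest. Genes without a summit tied at percentiles of 19.3 to 20.8 in pracinostat libraries, and at 21.2, 30.6 and 19.2 in DMSO libraries 1 to 3. Most members sat on ties in DMSO library 2: 10 had no summit, 10 had the lowest score of the list (percentile 67.2) and 11 the next lowest (76.8). Macrophage and microglia markers ranked highest of the cell type lists, with a summit in at least 3 libraries at 15 of 15 genes and library medians of 78.4 to 87.6 in pracinostat and 76.8 to 83.8 in DMSO libraries. Neutrophil markers had medians of 42.6 to 47.3 in pracinostat and 45.4 to 51.2 in DMSO libraries, with summits in at least 3 libraries at 10 of 12 genes and none at Ly6g and Retnlg in any. S100a8, Csf3r and Ltf had a summit in all 7 H3K27ac libraries. Their mean percentiles were 73.0, 65.1 and 51.7 in pracinostat and 70.6, 78.6 and 54.1 in DMSO libraries. Lymphocyte markers had medians of 43.6 to 47.9 in pracinostat and 21.2 to 42.5 in DMSO libraries (8 of 11 genes), and endothelial and mural markers 20.8 to 52.5 and 19.2 to 48.1 (5 of 8 genes). Oligodendrocyte markers had medians of 19.9 to 29.8 in pracinostat and 30.6 to 47.7 in DMSO libraries (4 of 8 genes, Mag and Olig1 at none), and neuron and astrocyte markers 19.9 to 33.0 and 19.2 to 30.6 (2 of 8 genes, Snap25 and Syt1 at none). Of the oligodendrocyte markers, Mbp and Cnp had a summit in all 7 H3K27ac libraries. Their mean percentiles were 76.7 and 64.6 in pracinostat and 74.3 and 75.5 in DMSO libraries. The part of other cell types in the values below was not tested. In sorted bulk cells, fewer cells that carry a mark and less of the mark per cell cannot be told apart.

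H3K27ac was nearly universal at the ends of replication and mitosis genes. Of the 40 members, 40, 40, 39 and 37 had a summit in pracinostat libraries 1 to 4, against 38, 30 and 39 in DMSO libraries 1 to 3. All 7 H3K27ac libraries had a summit at 24 members, 12 of 21 S phase and 12 of 19 mitosis genes, where 34.7% of all genes had one in all 7. Another 15 members had a summit in 6 libraries, and Ccne2, encoding cyclin E2, in 5. All 40 members thus had one in at least 5 libraries, where 51.9% of all genes did. In 9 members the gap was in DMSO library 2 alone. These were Mcm6, Gins1, Pola1, Pole, Rrm2, Ccna2, Top2a, Cenpe and Tpx2. The other gaps were Cdc6 and Bub1b in pracinostat library 4, Ccnb2 in pracinostat library 3, Bub1 and Cenpf in DMSO library 1, Tyms in DMSO library 3, and Ccne2 in pracinostat library 4 and DMSO library 2. IgG gave summits at 0 members in each pracinostat library, and at 2, 1 and 0 members in DMSO libraries 1 to 3. Those were Ccne1 and Birc5 in DMSO IgG library 1 and Mcm4 in DMSO IgG library 2, 3 of 40 members where 8.68% of all genes had a summit in some IgG library.

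Members ranked near the median marked gene in most libraries, and below it in DMSO library 2. The median percentile of the 21 S phase genes was 68.1, 69.1, 67.0 and 69.9 in pracinostat libraries 1 to 4, against 68.1, 67.2 and 76.1 in DMSO libraries 1 to 3. The groups overlapped, with DMSO library 3 the highest of the 7. The median of the 19 mitosis genes was 72.0, 72.0, 61.8 and 68.1 in pracinostat libraries, against 61.8, 76.8 and 66.0 in DMSO libraries. Here DMSO library 2, with its tied scores, was the highest, and pracinostat library 3 and DMSO library 1 were the lowest. The median of all genes with a summit in the same library was 69.9 to 70.6 in pracinostat libraries, and 70.8, 82.9 and 69.1 in DMSO libraries 1 to 3. With unmarked members left out in the same way, the S phase median was 68.1, 69.1, 67.0 and 71.6 in pracinostat libraries 1 to 4, against 68.1, 76.8 and 77.4 in DMSO libraries 1 to 3. The mitosis median was then 72.0, 72.0, 61.8 and 68.1 in pracinostat libraries, against 67.1, 76.8 and 66.0 in DMSO libraries. In DMSO library 2 both medians sat on the next-to-lowest score of the list, below the median marked gene.

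S phase genes did not rank steadily above or below mitosis genes. The S phase median minus the mitosis median was −3.83, −2.89, 5.26 and 1.77 percentile points in pracinostat libraries 1 to 4, against 6.31, −9.66 and 10.2 points in DMSO libraries 1 to 3. Both groups held libraries of either sign. The difference averaged 0.0782 ± 4.23 points in pracinostat (SD, n = 4) and 2.27 ± 10.5 points in DMSO libraries (SD, n = 3), so the gap between the group means, −2.19 points, was smaller than either SD. The S phase median averaged 68.5 ± 1.24 in pracinostat (SD, n = 4) and 70.5 ± 4.94 in DMSO libraries (SD, n = 3). The mitosis median averaged 68.5 ± 4.81 in pracinostat (SD, n = 4) and 68.2 ± 7.78 in DMSO libraries (SD, n = 3). Members are not replicates of a treatment, and no p-value was computed over them.

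**Figure D2:**
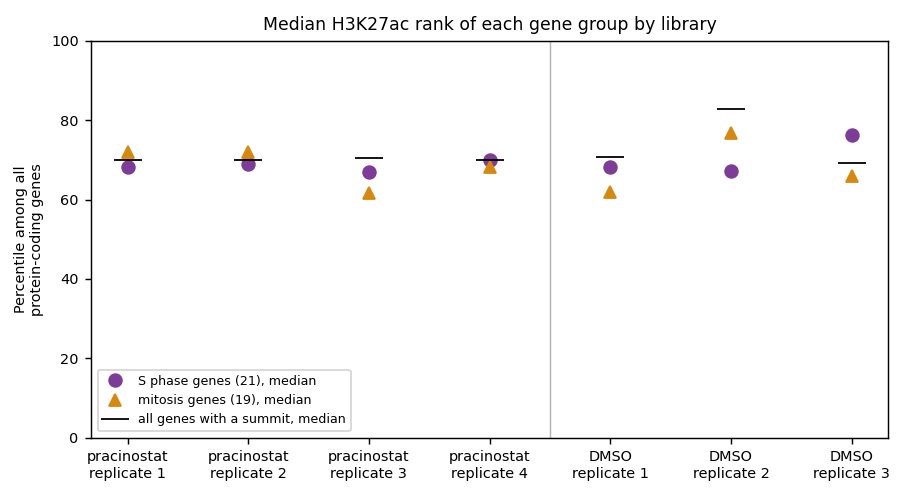
Median percentile of the highest H3K27ac summit score (vertical axis) of the 21 S phase and 19 mitosis genes in each library, pracinostat left of DMSO. The pracinostat S phase medians lie between 67.0 and 69.9, inside the spread of the DMSO libraries, 67.2 to 76.1, except for the lowest.

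The 10 origin licensing and helicase genes held some of the highest marks of the module. Gene coordinates below are of build GRCm38.p6. Mean percentiles over the 7 libraries ran from 56.7 to 93.8, 5 of the 10 were higher and 5 lower in pracinostat than in DMSO means (6 and 4 without DMSO library 2), and 7 had a summit in all 7 libraries. Gins2, a subunit of the GINS part of the replicative helicase (chromosome 8, 120581266 to 120589075), had the highest mean of all members. Its percentile was 94.7, 94.4, 97.2 and 91.5 in pracinostat libraries 1 to 4, against 98.4, 98.7 and 81.9 in DMSO libraries 1 to 3. It was above 90 in every library but DMSO library 3. Mcm6, a subunit of the MCM2-7 helicase ring (chromosome 1, 128331575 to 128359705), had percentiles of 84.5, 92.6, 53.2 and 82.4 in pracinostat libraries 1 to 4, against 73.6, 30.6 and 76.1 in DMSO libraries 1 to 3. Pracinostat libraries 1, 2 and 4 stood above the DMSO libraries and pracinostat library 3 did not, while DMSO library 2 had no summit. This gave means of 78.2 ± 17.2 in pracinostat (SD, n = 4) and 60.1 ± 25.6 in DMSO libraries (SD, n = 3), and the largest positive normal-score difference of the module.

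Mcm3, another ring subunit (chromosome 1, 20802966 to 20820312), had percentiles of 54.5, 65.1, 42.6 and 58.7 in pracinostat libraries 1 to 4, against 68.1, 67.2 and 64.3 in DMSO libraries 1 to 3. The DMSO libraries were the higher ones, and pracinostat library 2 lay among them. Cdc6, which loads the ring on origins (chromosome 11, 98907709 to 98923942), had percentiles of 64.0, 68.1, 55.6 and 19.3 in pracinostat libraries 1 to 4, against 56.6, 76.8 and 56.3 in DMSO libraries 1 to 3. Pracinostat library 4 had no summit there, and pracinostat libraries 1 to 3 lay on both sides of DMSO libraries 1 and 3. Cdt1, the partner of Cdc6 in loading, had percentiles of 96.6, 92.6, 98.7 and 90.0 in pracinostat libraries 1 to 4, against 82.6, 96.0 and 98.7 in DMSO libraries 1 to 3. It was near the top of each library, with DMSO library 1 the lowest. The other MCM subunits had means over the 7 libraries of 76.6 for Mcm2, 82.6 for Mcm4, 65.0 for Mcm5 and 82.1 for Mcm7, and the GINS subunit Gins1 of 69.4.

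DNA synthesis and nucleotide supply genes were mostly lower in rank, except for Pcna. Their means over the 7 libraries ran from 50.4 to 93.1, 6 of the 7 genes had the higher mean in pracinostat libraries, and 3 had a summit in all 7 libraries. Pcna, the sliding clamp of DNA polymerases and a usual marker of S phase (chromosome 2, 132249286 to 132253180), had percentiles of 97.2, 95.7, 97.5 and 92.8 in pracinostat libraries 1 to 4, against 92.6, 76.8 and 98.9 in DMSO libraries 1 to 3. It was above 90 in every library but DMSO library 2, where it sat on a tie. Rrm2, the small subunit of ribonucleotide reductase (chromosome 12, 24708254 to 24714146), had percentiles of 59.7, 69.1, 72.1 and 52.0 in pracinostat libraries 1 to 4, against 56.6, 30.6 and 56.3 in DMSO libraries 1 to 3. The groups overlapped, and DMSO library 2 had no summit. Rrm1 (chromosome 7, 102441695 to 102469771) had percentiles of 64.0, 62.8, 63.5 and 46.8 in pracinostat libraries 1 to 4, against 61.8, 67.2 and 53.9 in DMSO libraries 1 to 3. The pracinostat libraries lay close together except library 4, the lowest of the 7.

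Tyms, thymidylate synthase (chromosome 5, 30038546 to 30073645), had the lowest mean of this class, with percentiles of 59.7, 48.4, 57.9 and 46.8 in pracinostat libraries 1 to 4, against 53.4, 67.2 and 19.2 in DMSO libraries 1 to 3. DMSO libraries held both the highest and the lowest value, the lowest being a library without a summit. Pola1 and Pole, catalytic subunits of the priming polymerase and of the leading-strand polymerase, had means over the 7 libraries of 66.1 and 57.2. Tk1, thymidine kinase, had a mean of 59.3. Pola1 and Pole had no summit in DMSO library 2.

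The 4 genes of G1/S control were 1 higher and 3 lower in pracinostat means, and 0 higher and 4 lower without DMSO library 2. Ccna2, cyclin A2, which drives S phase and entry into mitosis (chromosome 3, 36564865 to 36573038), had percentiles of 84.5, 98.8, 90.9 and 66.3 in pracinostat libraries 1 to 4, against 90.2, 30.6 and 96.3 in DMSO libraries 1 to 3. It was among the higher genes in 5 libraries, lower in pracinostat library 4 and without a summit in DMSO library 2. Its window overlaps those of Bbs7 and Exosc9, so the summit cannot be assigned to Ccna2 alone. With 500 bp windows Ccna2 had a summit in fewer than 3 libraries and was not compared. Ccne1, cyclin E1, the partner of CDK2 at S phase entry (chromosome 7, 38097984 to 38107490), had percentiles of 68.1, 67.2, 75.1 and 71.6 in pracinostat libraries 1 to 4, against 69.8, 76.8 and 86.6 in DMSO libraries 1 to 3. The groups overlapped with DMSO library 3 the highest. Ccne2 (chromosome 4, 11190433 to 11204779) had the lowest mean of the 40 members, with percentiles of 51.4, 46.3, 59.9 and 19.3 in pracinostat libraries 1 to 4, against 46.8, 30.6 and 56.3 in DMSO libraries 1 to 3. Both groups held a library without a summit there. E2f1, the activator that turns on S phase genes, had a mean of 73.8 over the 7 libraries.

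Mitotic kinases and cyclins ranged widely. Their means over the 7 libraries ran from 50.8 to 88.6, and 2 of the 6 genes were higher and 4 lower in pracinostat means. Without DMSO library 2 the count turned round, with 4 higher and 2 lower. Aurka, the Aurora kinase of spindle poles (chromosome 2, 172356190 to 172370886), had percentiles of 92.4, 94.8, 81.3 and 68.1 in pracinostat libraries 1 to 4, against 96.1, 97.7 and 89.6 in DMSO libraries 1 to 3. The DMSO libraries were high together and pracinostat libraries 3 and 4 lay below them, while libraries 1 and 2 lay among them. The means were 84.2 ± 12.2 in pracinostat (SD, n = 4) and 94.5 ± 4.32 in DMSO libraries (SD, n = 3), and its normal-score difference was the most negative of the module. Plk1, the Polo-like kinase of mitotic entry (chromosome 7, 122159435 to 122169884), had percentiles of 57.2, 58.3, 90.2 and 56.7 in pracinostat libraries 1 to 4, against 61.8, 67.2 and 60.6 in DMSO libraries 1 to 3. Pracinostat library 3 was far above the other 6 libraries, which lay within a narrow band.

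Ccnb2, cyclin B2 (chromosome 9, 70407689 to 70421554), had percentiles of 51.4, 53.3, 20.7 and 68.1 in pracinostat libraries 1 to 4, against 49.3, 67.2 and 45.3 in DMSO libraries 1 to 3. Pracinostat libraries held both the highest value and the only gap. Cdk1, the kinase that B-type cyclins activate at mitosis, had a mean over the 7 libraries of 67.6, Ccnb1 of 57.7 and Aurkb, the Aurora kinase of the chromosomal passenger complex, of 70.3.

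The 4 checkpoint and anaphase genes were 1 higher and 3 lower in pracinostat means. Bub1, a kinase of the spindle checkpoint (chromosome 2, 127800197 to 127831859), had percentiles of 72.0, 70.0, 53.2 and 52.0 in pracinostat libraries 1 to 4, against 21.2, 82.9 and 48.2 in DMSO libraries 1 to 3. DMSO libraries held both extremes, with no summit in library 1. Bub1b, encoding the checkpoint protein BUBR1 (chromosome 2, 118598202 to 118641592), had percentiles of 72.0, 58.3, 50.6 and 19.3 in pracinostat libraries 1 to 4, against 72.6, 76.8 and 45.3 in DMSO libraries 1 to 3. The lowest value was pracinostat library 4, without a summit, and the groups overlapped. Cdc20 (chromosome 4, 118432901 to 118437343) had percentiles of 59.7, 82.4, 55.6 and 68.1 in pracinostat libraries 1 to 4, against 59.4, 76.8 and 85.8 in DMSO libraries 1 to 3. Both groups held high and low libraries. Ube2c, the ubiquitin-conjugating enzyme of the anaphase-promoting complex, had a mean of 68.1 over the 7 libraries.

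Chromosome, kinetochore and spindle genes were 5 higher and 2 lower of 7 in pracinostat means. Without DMSO library 2 they were 3 higher and 4 lower. Cenpe, the kinesin that moves chromosomes to the spindle equator (chromosome 3, 135212563 to 135273540), had percentiles of 75.5, 58.3, 78.9 and 64.5 in pracinostat libraries 1 to 4, against 55.0, 30.6 and 58.5 in DMSO libraries 1 to 3. Pracinostat libraries 1, 3 and 4 were above all DMSO libraries, pracinostat library 2 lay just under DMSO library 3, and DMSO library 2 had no summit. The means were 69.3 ± 9.6 in pracinostat (SD, n = 4) and 48.0 ± 15.2 in DMSO libraries (SD, n = 3). Birc5, survivin of the passenger complex (chromosome 11, 117849237 to 117855743), had percentiles of 81.9, 72.0, 84.6 and 92.8 in pracinostat libraries 1 to 4, against 93.9, 90.5 and 80.8 in DMSO libraries 1 to 3. It was among the higher members in both groups, with pracinostat library 2 the lowest. Top2a (chromosome 11, 98992947 to 99024199) had percentiles of 47.9, 53.3, 61.8 and 54.4 in pracinostat libraries 1 to 4, against 55.0, 30.6 and 69.1 in DMSO libraries 1 to 3. With 8 promoter matches, the most of the printed members, it was the fourth from the bottom of the 40 members by mean percentile, and DMSO library 2 had no summit. Kif11, the kinesin that pushes spindle poles apart, had a mean of 81.1 over the 7 libraries, Kif23, a kinesin of the dividing cell's midzone, 71.0, Tpx2, a spindle assembly factor, 64.2, and Cenpf, a kinetochore protein, 61.2.

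Foxm1 and Mki67 ranked 13 and 14 of the 40 members by mean percentile, 1 with the higher and 1 with the lower mean in pracinostat libraries (0 and 2 without DMSO library 2). Foxm1, the forkhead activator of G2 and mitosis genes (chromosome 6, 128362994 to 128375886), had percentiles of 72.0, 76.9, 53.2 and 92.8 in pracinostat libraries 1 to 4, against 81.3, 67.2 and 67.6 in DMSO libraries 1 to 3. Pracinostat libraries held both the highest and the lowest value. Mki67, encoding the proliferation marker Ki-67 (chromosome 7, 135689784 to 135716450), had percentiles of 75.5, 81.8, 55.6 and 71.6 in pracinostat libraries 1 to 4, against 60.6, 76.8 and 81.9 in DMSO libraries 1 to 3. Its means were 71.1 ± 11.2 in pracinostat (SD, n = 4) and 73.1 ± 11.1 in DMSO libraries (SD, n = 3), less than 1 SD of either group apart. In DMSO libraries 1 and 2 its highest summit lay at the 3′ end of the gene, and in the other libraries at the 5′ end. These percentiles therefore compare different ends of the gene. With the 5′ end alone the normal-score difference was −0.056.

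**Figure D3:**
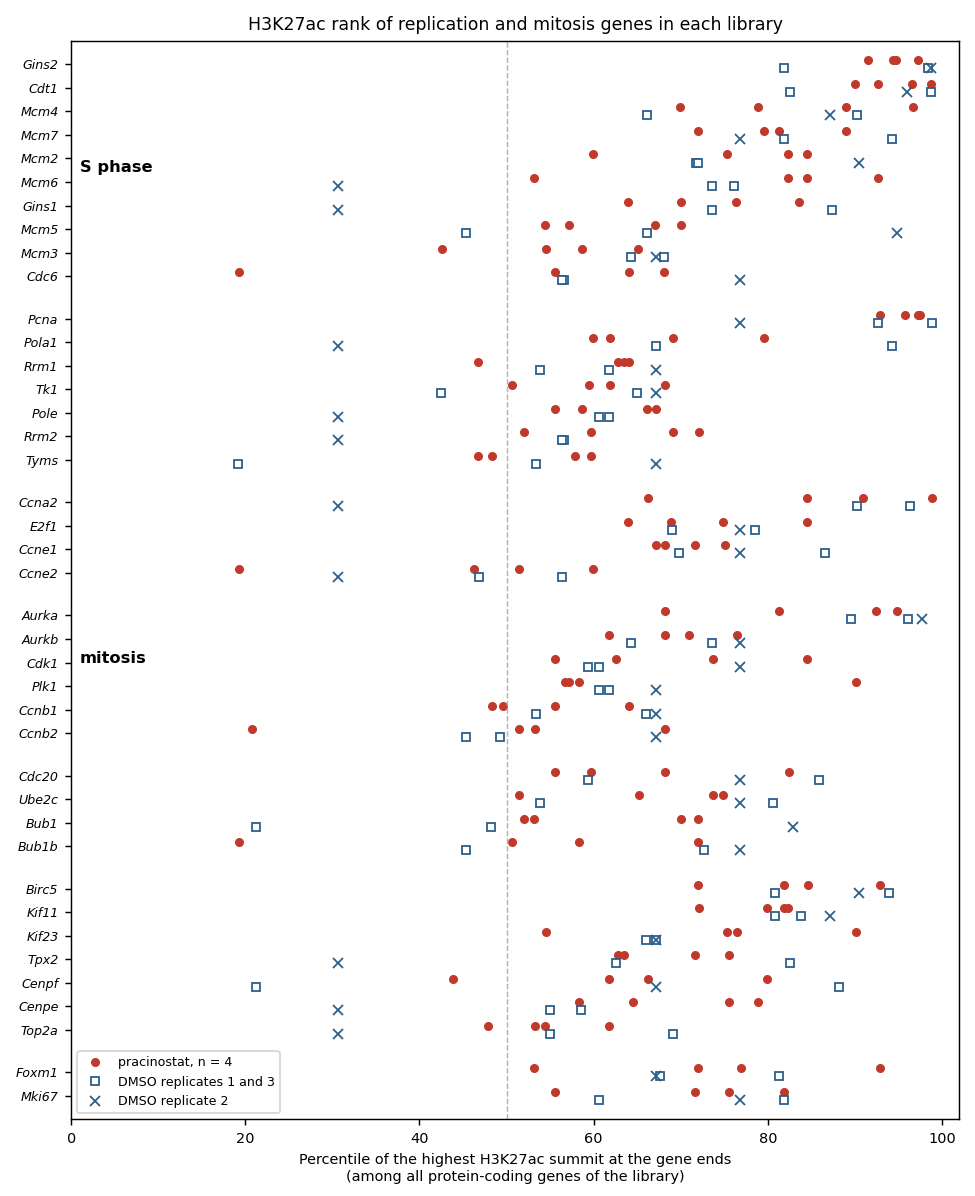
Percentile of the highest H3K27ac summit score within 1 kb of either gene end (0 to 100) for the 40 members grouped by role (rows) in the 4 pracinostat and the 3 DMSO libraries. Cdt1, Gins2 and Pcna are high in nearly every library, and DMSO library 2 holds 10 of the gaps.

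No member passed the comparison of pracinostat with DMSO, and neither did any other gene. The comparison took the 13494 genes with a summit in at least 3 libraries, 61.7% of all genes and 40 of 40 members. Their percentiles were turned into normal scores and compared with limma, with Benjamini-Hochberg adjustment over all 13494. At an adjusted p under 0.05, limma called 0 of 40 members and 0% of the 13494 compared genes. The smallest adjusted p of a member was 0.804, for Cenpe, with a normal-score difference of 0.57 ± 0.28 (SE). At an unadjusted p under 0.05, limma called 1 of 40 members, where 6.15% of the compared genes were called. That member, Cenpe, was higher, as were 4.03% of the compared genes, and 0 members were lower, where 2.12% of the compared genes were. The unadjusted limma p of Cenpe was 0.0476. Without DMSO library 2, which had no summit at Cenpe, its difference was 0.35 and the unadjusted limma p was 0.150. The largest differences were 0.59 ± 0.33 for Mcm6 (limma adjusted p = 0.816) and −0.57 ± 0.35 for Aurka (limma adjusted p = 0.816). Without DMSO library 2 they were 0.20 and −0.40. Standard errors of the members ran from 0.26 to 0.44, so differences of the size seen could not be told from the spread between libraries.

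The members leaned neither way as a group. The mean normal score was higher in pracinostat for 19 of 40 members, where 56.2% of the compared genes were higher, and the median difference was −0.03 over members and 0.05 over the compared genes. On mean percentiles 21 members were higher and 19 lower in pracinostat. Of the S phase genes 12 were higher and 9 lower, and of the mitosis genes 9 were higher and 10 lower. Without DMSO library 2, 20 members were higher and 20 lower. The 4 pracinostat and 3 DMSO values did not overlap at 0 of 40 members, where 3.86% of the compared genes were wholly higher and 2.63% wholly lower. The lean of the compared genes depended on how genes without a summit were ranked: of genes at an unadjusted limma p under 0.05, 544 were higher and 286 lower, and when only the 13494 genes were ranked 370 were higher and 462 lower. Ranks are relative within a library, so a shift of acetylation at all genes alike would not show in them.

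**Figure D4:**
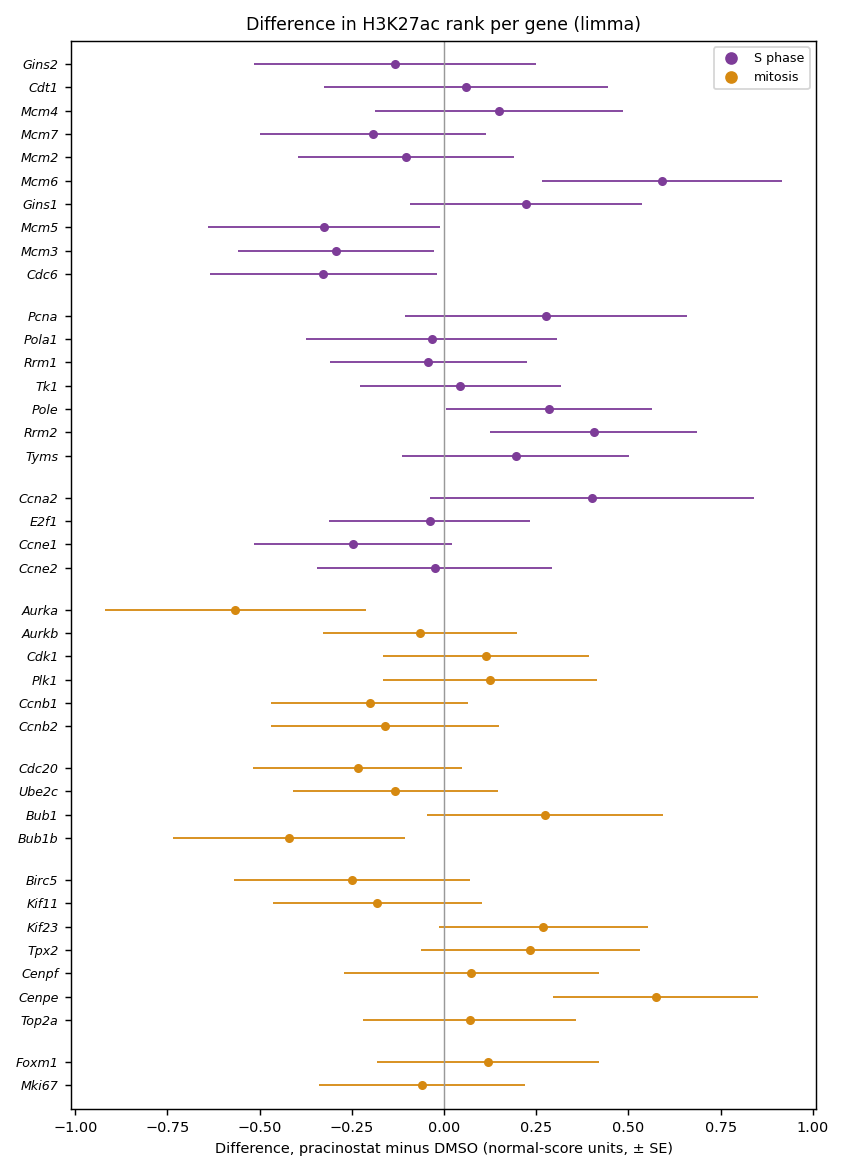
Difference in normal score, pracinostat minus DMSO, for the 40 members by role (points, with bars of 1 SE from limma); positive means higher in pracinostat. The differences lie between −0.57 (Aurka) and 0.59 (Mcm6), on both sides of 0 in every role class.

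The highest summits of S phase and mitosis genes lay at somewhat different places relative to the annotated 5′ end of the gene. That end is not always the RefSeq transcription start. The start lay more than 100 bp away in Cdc6 (442 bp), E2f1 (466 bp), Mcm7 (228 bp) and Pola1 (232 bp). Among mitosis members it did so in Aurka alone (316 bp). The part of these offsets in the positions below was not tested. Strand was known for 15 S phase and 16 mitosis members. The highest summit was nearer the 5′ end than the 3′ end in 96 of 100 S phase gene and library pairs (96%) and in 100 of 106 mitosis pairs (94.3%), where it was so in 83.8% of pairs over 17492 genes. S phase summits had a median position of 107 bp downstream of the 5′ end (quartiles −52 and 352.5 bp), and 65.6% lay downstream. Mitosis summits had a median of −5.5 bp, just upstream (quartiles −139.75 and 176.75 bp), and 47% lay downstream. Over all genes the median was 47 bp and 56.4% lay downstream. Within 500 bp of the 5′ end lay 79.2% of the S phase and 90% of the mitosis summits. Pairs of 1 gene in several libraries are not independent and the genes are few, so these positions are a description with no test.

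**Figure D5:**
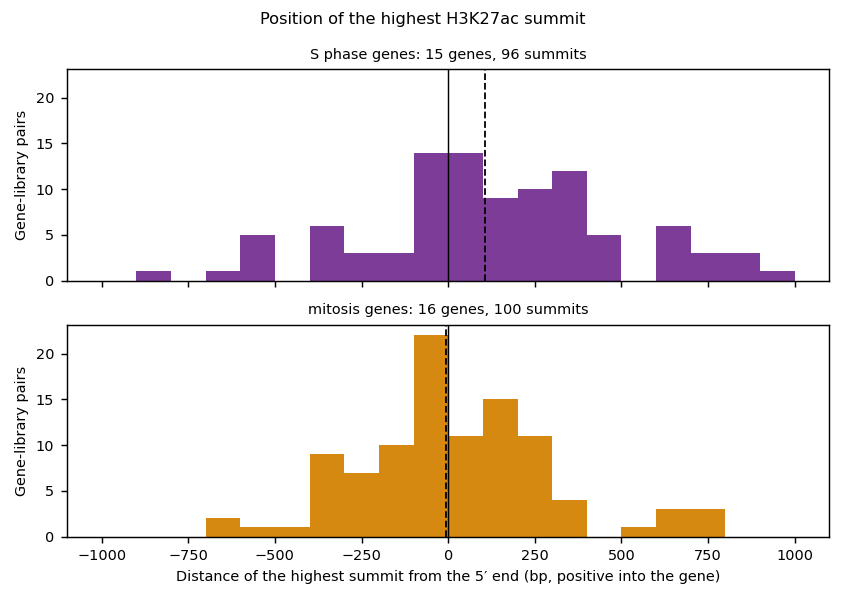
Gene and library pairs by the position of the highest H3K27ac summit relative to the gene's 5′ end (bp, positive downstream), for S phase and mitosis members. The S phase positions are shifted downstream (median 107 bp) of the mitosis positions (median −5.5 bp).

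Members with a close neighbour gene ranked higher than those without. The windows of 14 members, 9 S phase and 5 mitosis genes, overlapped those of another protein-coding gene, as did 32.2% of all genes, and a summit there cannot be assigned to either gene. Gins2 shared its window with Gse1, Cdt1 with Aprt, Pcna with Cds2 and Tmem230, and Aurka with Cstf1 and Fam210b, so 4 of the 5 members with the highest means shared a window, Birc5 being the other. The median of the mean percentiles was 77.1 in pracinostat and 74.4 in DMSO libraries for the 14 members with a shared window, and 65.4 and 63.5 for the 26 without. Over all ranked genes the same split gave 74.7 in pracinostat and 73.4 in DMSO libraries for 6150 genes with a shared window, and 66.1 and 61.9 for 7344 without. Cdt1 held the most summits in its windows, 8 in each of pracinostat libraries 1 and 2.

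Among other genes of the same pathways too, none passed the limma test. Of 36 further replication genes, 33 entered the comparison, 19 had a summit in all 7 libraries (34.7% of all genes did) and 0 passed at an adjusted limma p under 0.05. At an unadjusted p under 0.05, 2 of the 33 were higher and 0 lower, where 4.03% of the compared genes were higher and 2.12% lower. The median normal-score difference was 0.12, against 0.05 over the compared genes. The list's median percentile was 71.0, 76.2, 73.6 and 75.7 in pracinostat libraries 1 to 4, against 73.6, 67.2 and 72.7 in DMSO libraries 1 to 3, with the groups overlapping. Pole2, an accessory subunit of the leading-strand polymerase, had percentiles of 80.3, 71.0, 84.6 and 76.5 in pracinostat libraries 1 to 4, against 49.3, 30.6 and 66.0 in DMSO libraries 1 to 3. All 4 pracinostat libraries were above the DMSO libraries, and the normal-score difference was 0.82 ± 0.28 (limma adjusted p = 0.757). Pold1, the catalytic subunit of the lagging-strand polymerase, had percentiles of 92.4, 92.3, 95.3 and 82.4 in pracinostat libraries 1 to 4, against 88.0, 30.6 and 77.4 in DMSO libraries 1 to 3. The groups overlapped, with a difference of 0.89 ± 0.34 (limma adjusted p = 0.757). In the other direction, Orc6, a subunit of the origin recognition complex, differed by −0.61 ± 0.39 (limma adjusted p = 0.816), and Rfc2, a subunit of the clamp loader, by −0.45 ± 0.29 (limma adjusted p = 0.816). Both were marked in all 7 libraries, Orc6 at 81.3 or above in each.

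Of 34 further mitosis genes all 34 entered, 18 had a summit in all 7 libraries, 0 passed, and at an unadjusted limma p under 0.05 there were 1 higher and 1 lower of 34, where 4.03% of the compared genes were higher and 2.12% lower. The median difference was 0.11, against 0.05 over the compared genes. The list's median percentile was 66.1, 76.9, 68.9 and 69.9 in pracinostat libraries 1 to 4, against 76.1, 67.2 and 77.4 in DMSO libraries 1 to 3, with the groups overlapping. Kif20b, a kinesin of cytokinesis, had percentiles of 89.0, 76.2, 73.6 and 88.2 in pracinostat libraries 1 to 4, against 49.3, 30.6 and 88.2 in DMSO libraries 1 to 3. DMSO library 3 lay within the pracinostat range and DMSO libraries 1 and 2 below it, with a difference of 0.72 ± 0.32 (limma adjusted p = 0.787). Racgap1, a partner of Kif23 at the midzone, differed by 0.60 ± 0.37 (limma adjusted p = 0.816) and had no summit in pracinostat library 3 or in DMSO libraries 1 and 2. Ccnf, cyclin F, had percentiles of 66.1, 77.6, 82.4 and 74.9 in pracinostat libraries 1 to 4, against 88.0, 90.5 and 91.5 in DMSO libraries 1 to 3. Every pracinostat library lay below every DMSO library, with a difference of −0.59 ± 0.29 (limma adjusted p = 0.808). Cdc25c, a phosphatase that activates CDK1, differed by −0.60 ± 0.34 (limma adjusted p = 0.816).

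Of 34 genes of G1 control, the RB-E2F pathway and DREAM all 34 entered, 21 had a summit in all 7 libraries and 0 passed. At an unadjusted limma p under 0.05, 3 of the 34 were higher and 1 lower, where 4.03% of the compared genes were higher and 2.12% lower. The median difference was 0.02, against 0.05 over the compared genes. The list's median percentile was 72.0, 68.1, 71.3 and 74.9 in pracinostat libraries 1 to 4, against 66.6, 67.2 and 66.7 in DMSO libraries 1 to 3. Every pracinostat library was above every DMSO library on this median, by less than 1 point at the nearest pair, pracinostat library 2 and DMSO library 2. The DMSO library 2 value was the tie at the lowest score of that library, where 25 of the 34 genes had a summit. This separation of the medians was not tested. Rbl1, encoding the RB relative p107, had percentiles of 72.0, 83.5, 73.6 and 90.8 in pracinostat libraries 1 to 4, against 63.9, 30.6 and 51.2 in DMSO libraries 1 to 3. All 4 pracinostat libraries were above the DMSO libraries, with a difference of 0.92 ± 0.28 (limma adjusted p = 0.757). Ccnd1, cyclin D1, which starts RB phosphorylation, had percentiles of 72.0, 70.0, 73.6 and 94.0 in pracinostat libraries 1 to 4, against 69.0, 30.6 and 64.3 in DMSO libraries 1 to 3. The groups did not overlap, by a margin of about 1 point, and the difference was 0.71 ± 0.30 (limma adjusted p = 0.775). Cdkn1b, the CDK inhibitor p27, had percentiles of 84.5, 62.8, 72.1 and 73.3 in pracinostat libraries 1 to 4, against 91.4, 82.9 and 98.2 in DMSO libraries 1 to 3. Pracinostat library 1 lay just above DMSO library 2, and the other pracinostat libraries lay below every DMSO library, with a difference of −0.83 ± 0.32 (limma adjusted p = 0.757). Cdkn2a, the locus of the inhibitor p16 and of ARF, differed by −0.42 ± 0.31 (limma adjusted p = 0.833). Pole2, Pold1, Kif20b, Rbl1 and Ccnd1, 5 of the 6 genes named on the higher side, had no summit in DMSO library 2 and did in the other 6 libraries. Without that library their differences were 0.59, 0.40, 0.35, 0.69 and 0.39, and that of Cdkn1b was −1.09.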

How the data were processed

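Each of the 14 libraries had 1 deposited list of peak summits, made by the authors per library, with a −log10 significance score per summit. The build was mm10 and the tools named are HOMER, DESeq2, Bowtie2 and MACS2 (version 2.2.9.1), per the submitters' processing notes. Not given in the sources used here are the reads per library, the calling threshold, the use of IgG, and whether scores derive from p or q values. Depth is therefore known only through summit numbers, and no interval was computed from it.

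The highest score within 1000 bp of either gene end was ranked within each library over 21887 protein-coding genes of RefSeq GRCm38.p6, the assembly that mm10 names, with genes without a summit tied. Percentiles were turned into normal scores, where 1 unit would be 1 SD of all ranked genes if none were tied. The ties make that SD smaller than 1 unit. The 4 pracinostat were compared with the 3 DMSO H3K27ac libraries by limma 3.58.1 with a trended and robust variance (R 4.3.3, statmod 1.5.0). Adjustment was by Benjamini-Hochberg over 13494 genes with a summit in at least 3 libraries. The procedure was tested on simulated data without tied scores, with shifts larger than any member difference. That test therefore does not show whether differences of the size seen here would be found. Strand and promoters came from a RefSeq promoter table of the same build, which held 31 members; the others were Ccna2, Ccne2, Mcm4, Pole, Gins1, Gins2, Aurkb, Tpx2 and Foxm1.

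The members, lists and rules were chosen with earlier results of these data known. Full values are given, in each role, for the members with the smallest unadjusted p in each direction and with the highest and lowest mean, for Mki67, Pcna and Top2a, and for any member past the threshold or without a summit in 3 or more libraries. Of each pathway list the 2 genes with the smallest unadjusted p per direction are named. Cdt1 was added after its values were seen. Promoters are those of named members with the most motif matches whose RefSeq start lies within 100 bp of the gene's 5′ end. Alternatives covered the windows (500 and 2500 bp, 5′ end alone), the ranking, the 30000 highest summits, IgG summits within 250 bp removed, the presence filter, list length as a covariate, array weights, a replicate block and each library left out. Restricting the list to members with unshared windows and counting members by role without DMSO library 2 were chosen after seeing the data.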

Additional observations from a re-analysis of the deposited data

Results flagged for a closer look

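In 43 groups of 4 pracinostat values (40 members and 3 medians), the gap from the highest or lowest library to its nearest value was divided by the range of all 4. Chance meets this check in about 1 of 20 groups. The check met Rrm1, where pracinostat library 4 stood at a percentile of 46.76 and the other 3 at 62.80 to 64.01. It also met Plk1, where pracinostat library 3 stood at 90.17 and the other 3 at 56.67 to 58.30. The DMSO group, with 3 libraries, is too small for this check.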

How the results depend on the processing

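limma called 0 members under every alternative run, of 26 tested with the 30000 highest summits, 31 with the 5′ end alone, 39 with 500 bp windows and 40 otherwise, and with each library left out (0 to 0). Over all genes it called 0 in the analysis reported, 1 with the 30000 highest summits per library, 3 with a summit required in at least 1 library, and 0 to 1 with each library left out, the 1 being without DMSO library 3. At an unadjusted p under 0.05 it called 830 genes, against 482 with unmarked genes at the bottom rank, 454 with the 30000 highest summits and 1255 without DMSO library 3. The split was 253 higher and 229 lower with unmarked genes at the bottom rank, which moved the median difference of all genes to 0.16. It was 326 and 319 with list length as a covariate, and 327 and 307 without DMSO library 2.

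The S phase median difference (−1.94 points, pracinostat minus DMSO) was −19.54 with the 30000 highest summits, 2.112 as a mean over genes, and −3.581 to 0.8989 with each library left out. The mitosis difference (0.250) was 13.66 with the 30000 highest summits and −2.967 to 4.572 with each library left out. The S phase minus mitosis difference (−2.19) was −33.19 and −8.153 to 1.755. In DMSO library 2, 11425 of the 30000 kept summits were drawn at random from 34928 tied at the limit, so its shortened list is not its 30000 highest. In the shortened lists 9, 15, 9 and 11 of 21 S phase genes had a summit in pracinostat libraries 1 to 4 and 13, 12 and 12 in DMSO libraries 1 to 3, so the median was above or below the unmarked tie.

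All alternatives were tabulated only for the member with the smallest unadjusted p in each direction of each role. Of their alternative values, 228 kept their direction and 16 reversed. Of the other members given in full, Gins2, Pcna, Ccnb2 and Top2a reversed without DMSO library 2. Cdc6, Cdt1, Tyms, Ccne2 and Cdc20 did not. Rrm1 (−0.04) reversed to 0.06727 with list length as a covariate and to 0.06313 with the replicate block, which drops pracinostat library 4 and gave the value found without that library alone (left-out range −0.135 to 0.06313). Ccna2 (0.40) reversed to −0.2256 with list length (−0.2817 to 0.8676). Plk1 (0.12) reversed to −0.05482 with 500 bp windows (−0.1516 to 0.2228), and Bub1 (0.27) without DMSO library 1 (−0.1431 to 0.7312). Foxm1 (0.12) reversed to −0.05272 with 500 bp windows and to −0.1302 with the replicate block, again the value without pracinostat library 4 alone (−0.1302 to 0.3307). Mki67 (−0.06) reversed to 0.04364 with the 30000 highest summits and to 0.06205 with array weights (−0.2445 to 0.08575). None of these differences passed the test in any setting, and the cause was not tested.

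Replicate numbers are shared by the groups. Same-numbered libraries correlated at −0.0472, 0.0176 and −0.00941 in their deviations from the group means, so the numbers were not taken to pair the samples. With the replicate block, over replicates 1 to 3, limma called 0 members and 0 genes, and 772 genes at an unadjusted p under 0.05.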

Other observations

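The order of the 40 members was less alike between libraries than that of the 13494 compared genes. Spearman's rho over the 40 members was 0.369 to 0.587 between pairs of pracinostat libraries, 0.50 to 0.719 between pracinostat libraries and DMSO libraries 1 and 3, and 0.498 between those DMSO libraries. Over all 13494 compared genes the same pairs gave 0.733 to 0.808, 0.723 to 0.801 and 0.757. Pairs with DMSO library 2 gave 0.185 to 0.483 over the members and 0.612 to 0.668 over all compared genes. The 2 sets are unlike: every member had a summit in at least 5 libraries, while the compared genes needed one in at least 3. The part of this in the lower values of the members was not tested. These values are across genes of the same libraries, and genes are not independent replicates.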
